A study of Homo sapiens with 16 samples.

Results

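The regions examined were the open-chromatin regions around 3 muscle regulatory genes in Rh30 cells: those in a 100 kb window that holds MYOG (chr1:203000000-203100000) and those in a 100 kb window that holds MYF6 and MYF5 (chr12:81050000-81150000), in hg19 coordinates. A region was taken where it overlapped a window by any base, with no use of its read counts. ATAC-seq, which reads DNA that a transposase can reach, was run in 2 experiments, called 6086 and 6211 after the numbers in their labels. Of the 56949 regions counted in experiment 6086, 19 were members, 18 in the MYOG window and 1 in the MYF6 and MYF5 window. Of the 40844 regions of experiment 6211, 14 were members, 13 in the MYOG window and 1 in the other. All of them passed the filter on low counts.

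Rh30 is a human alveolar rhabdomyosarcoma line, a tumour of cells with features of skeletal muscle, which carries the fusion protein PAX3-FOXO1. Every sample came from Rh30 cells whose PAX3-FOXO1 bears an FKBP tag, so the DMSO controls carried the tag too, and dTAG47 is a compound that directs proteins with such a tag to degradation. Experiment 6086 held DMSO and 2, 4 and 24 h of 500 nM dTAG47, and experiment 6211 held DMSO and 0.5, 1 and 2 h of it. Each of the 8 groups had 2 libraries, written A and B after the column letters, and nothing in the labels ties them to different cultures. The p-values therefore speak of differences between libraries and may reflect technical spread alone. The labels give neither a time for DMSO nor whether the line is 1 clone, untagged cells given dTAG47 were not analysed here, and the level of the fusion protein was not measured in these files. Libraries held 18038062 to 31308682 counted reads in experiment 6086 and 9934147 to 18275976 in experiment 6211. In experiment 6086 the 24 h libraries were the deepest and DMSO library A the shallowest.

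MYOG (myogenin), MYF5 and MYF6 (also called MRF4) are, with MYOD1, the myogenic regulatory factors, basic helix-loop-helix proteins that bind E-box sequences and turn on muscle genes. MYF5 acts early, in the commitment of cells to the muscle lineage, MYOG is needed for myoblasts to differentiate and fuse, and MYF6 acts in early specification and in maturing fibres. Myogenin protein is a diagnostic marker of rhabdomyosarcoma, and the PAX3-FOXO1 form of the tumour typically expresses it. Accessibility at a locus is not a measure of the gene's RNA or protein.

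The sequences before the 3 gene starts are shown because E-boxes and the A/T-rich elements of MEF2 proteins are the known binding letters of this protein family and its cofactors. Each run is the 250 bases upstream of the start in RefSeq (GRCh38.p14), 5′ to 3′ on the gene's strand, for MYOG chr1:203086013-203086262 (minus strand), MYF5 chr12:80716662-80716911 (plus strand) and MYF6 chr12:80707384-80707633 (plus strand), with capitals on matches to the motifs searched.
MYOG: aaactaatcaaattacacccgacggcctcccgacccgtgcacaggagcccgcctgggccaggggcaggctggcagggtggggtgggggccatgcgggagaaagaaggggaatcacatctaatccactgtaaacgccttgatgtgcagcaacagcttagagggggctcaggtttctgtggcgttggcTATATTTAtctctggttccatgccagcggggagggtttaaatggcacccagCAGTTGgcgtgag
MYF5: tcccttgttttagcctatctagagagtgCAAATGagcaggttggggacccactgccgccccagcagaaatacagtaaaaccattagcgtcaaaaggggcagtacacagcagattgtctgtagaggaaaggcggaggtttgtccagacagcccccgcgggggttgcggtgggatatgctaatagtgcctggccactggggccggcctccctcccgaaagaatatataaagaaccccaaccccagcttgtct
MYF6: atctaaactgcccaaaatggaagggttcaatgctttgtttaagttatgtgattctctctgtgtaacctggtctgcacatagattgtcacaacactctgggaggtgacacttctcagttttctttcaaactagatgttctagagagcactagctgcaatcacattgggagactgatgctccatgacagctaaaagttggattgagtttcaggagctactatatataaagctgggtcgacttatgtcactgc

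The MYOG promoter held 1 E-box (CANNTG), with the letters CAGTTG, whose first base lay 13 bases before the start. It also held 1 copy of TAAATATA on the other strand, printed as TATATTTA, 64 bases before the start. The MYF5 promoter held 1 E-box, CAAATG, 222 bases before the start, and the MYF6 promoter held no E-box. Both strands were searched. At least 1 CANNTG was in 61.8% of 35116 RefSeq promoters of this length, so a single E-box is a common match. TAAATATA was in 1.15% of them. None of the 3 held CAGCTG, which is one form of CANNTG and was in 13.99% of promoters, or TATTTATA, in 1.35%. These are matches of letters only. The promoters are on GRCh38 and the regions on hg19, so which region, if any, covers a promoter was not read from these data. In RefSeq's order of protein-coding genes MYOG lies between PPFIA4 and ADORA1, and MYF6 and MYF5 lie side by side between PTPRQ and LIN7A. The windows may hold parts of those neighbours, and a region in a window is named here by position and not assigned to a gene, exon or intron.

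The MYOG window was densely open. Its 18 regions in experiment 6086 were 115 to 1164 bp wide, with a mean of 84.3 to 2240 reads per library. Only 0.272% of the 100 kb stretches of the genome with any region held as many, against a median of 2 regions. Levels are given as CPM, the reads of a region scaled to the library total over all regions, and between regions only as CPM per kb. The region with the highest level per kb was chr1:203058464-203059343, at 101 CPM per kb, above 99.5% of all regions. The other regions of the window are called here by the distance of their centres from it, negative toward smaller coordinates. Across the window the level spanned 6.61-fold, down to 15.3 CPM per kb at chr1:203018314-203018707, the −40.4 kb region, with a median of 40.7. The 4 regions at 0, −3.7, −51.3 and +26.6 kb, stood above 97% of all regions. The 3 regions with the most reads held 46.9% of the window's CPM in DMSO.

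**Figure D1:**
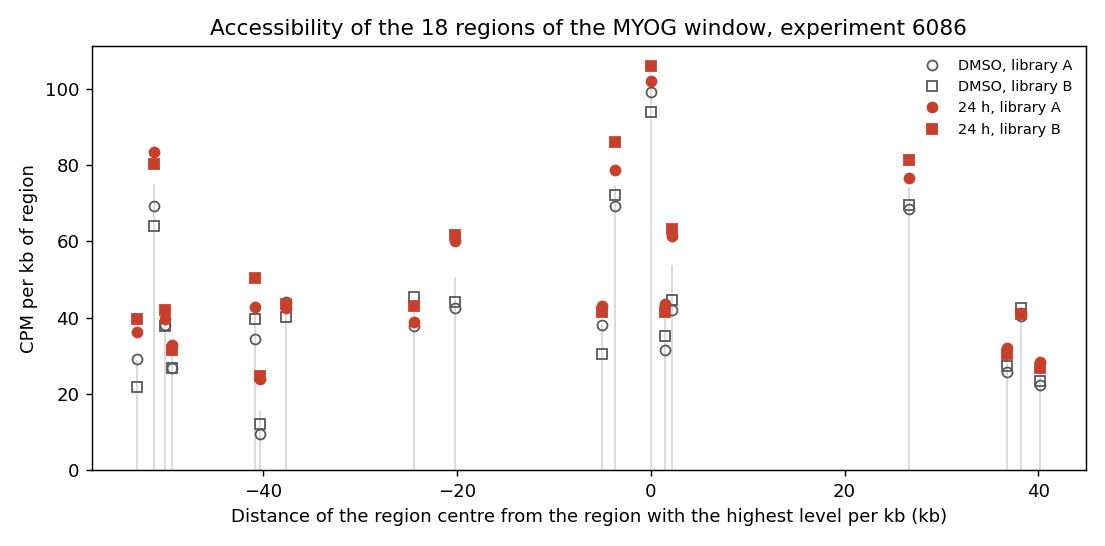
Level of each of the 18 regions of the MYOG window in experiment 6086, in CPM per kb of region, against the distance of the region's centre from the highest region in kb. Open symbols are the DMSO libraries, filled symbols the 24 h libraries, circles library A and squares library B, and each grey line runs up to the mean of the 8 libraries. The lowest region in DMSO, at −40.4 kb, lies at 9 to 12 CPM per kb in DMSO and near 24 after 24 h, and the regions at −24.4 and +38.2 kb have overlapping groups and a slightly lower mean after 24 h.

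After 24 h of dTAG47, 11 of the 18 regions of the MYOG window had risen and none had fallen (edgeR quasi-likelihood test, Benjamini-Hochberg adjusted over all regions, threshold 0.05). Of all regions tested, 32.2% were called, 13.6% as higher and 18.6% as lower. The rises were small. The 11 regions gained 1.15-fold to 2.22-fold, with a median of 1.25-fold, and 1 of them gained 2-fold or more. For each of the 11, both 24 h libraries were above both DMSO libraries, but the calls came from these same libraries, so this is not separate support. The share of all regions with groups apart was not computed. The median log2 change over the window was 0.27, against −0.0031 over all regions, and 16 of 18 regions had a positive change, against 49.4% of all regions. The count was 7 with DESeq2. Without 24 h library B the median log2 change over the 19 members was 0.27, against 0.26 with all libraries. The authors' deposited table holds the same log2 changes and adjusted p as this DESeq2 fit for the members described in full, so its 7 calls among 19 members, all higher, are not a separate result. It called 11323 of the 56949 regions in all. Over all regions, calls as higher at 24 h went from 7742 with edgeR to 4198 with DESeq2.

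The largest gain was at the region with the lowest level. The −40.4 kb region, chr1:203018314-203018707, read 3.70 and 4.77 CPM in the DMSO libraries, 4.77 and 4.56 at 2 h, 5.90 and 5.32 at 4 h, and 9.40 and 9.76 at 24 h. The DMSO and 2 h libraries overlapped, and the 24 h libraries stood apart from all others. At 24 h its log2 change from DMSO was 1.15 ± 0.13 (SE, n = 2 a group; edgeR adjusted p = 4.85e-09). At 2 h the change was 0.11 (edgeR adjusted p = 0.788) and at 4 h 0.37 (edgeR adjusted p = 0.133, and 0.0486 without DMSO library B), so most of the gain fell between 4 and 24 h, a step of 0.78 ± 0.12 on the log2 scale (edgeR adjusted p = 5.23e-06). A separate region, chr1:203017919-203018206, ends 107 bases before it. That neighbour, at −40.8 kb, went from 10.7 ± 1.07 to 13.4 ± 1.52 CPM (SD, n = 2), a 1.25-fold rise (edgeR adjusted p = 0.0123), and missed the threshold in the authors' deposited table (adjusted p = 0.0935).

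Close beside the highest region lay a pair with higher levels from 2 h on, though their 2 h calls depended on the method. The +2.2 kb region, chr1:203060911-203061357, read 18.8 and 19.9 CPM in DMSO, 24.0 and 23.4 at 2 h, 25.7 and 23.8 at 4 h, and 27.4 and 28.2 at 24 h. Every library with dTAG47 was above both DMSO libraries. Its log2 changes after 2, 4 and 24 h were 0.29 ± 0.08, 0.35 ± 0.08 and 0.52 ± 0.07 (SE; edgeR adjusted p = 0.0186, 0.00198 and 8.03e-07). The +1.5 kb region, chr1:203059968-203060758, ends 152 bases before it and read 25.0 and 27.9 CPM in DMSO, 31.2 and 32.5 at 2 h, 34.4 and 32.5 at 4 h, and 34.4 and 32.9 at 24 h. No group with dTAG47 overlapped DMSO, and the 4 h group overlapped those at 2 and 24 h. Its log2 change was 0.26, 0.33 and 0.34 in that order (edgeR adjusted p = 0.0230, 0.00150 and 0.000190). With DESeq2 the +2.2 and +1.5 kb regions missed the threshold at 2 h (adjusted p = 0.142 and 0.150) and passed it at 4 h (0.0236 and 0.0161). From 4 to 24 h the +1.5 kb region changed by 0.01 (95% interval −0.13 to 0.14). The +2.2 kb region changed by 0.17 (0.03 to 0.31, edgeR adjusted p = 0.0808). The difference between these steps was not tested.

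The 4 regions with the highest levels per kb had 24 h changes of 1.08-fold to 1.23-fold. The highest region itself read 87.2 and 82.7 CPM in DMSO, 92.7 and 86.4 at 2 h, 91.05 and 87.9 at 4 h, and 89.8 and 93.2 at 24 h. Its 24 h and DMSO groups did not overlap, yet the log2 change at 24 h was 0.11 (95% interval 0.01 to 0.21) and missed the threshold (edgeR adjusted p = 0.0934). That call depends on the scaling and depth: the edgeR adjusted p was 0.0278 with library size alone and 0.0307 with counts thinned to the smallest library. It stayed over the threshold with median-ratio scaling (edgeR adjusted p = 0.0780) and with DESeq2 (adjusted p = 0.252). The −3.7 kb region, chr1:203054598-203055761, read 80.7 and 84.02 CPM in DMSO, 87.3 and 81.3 at 2 h, 83.3 and 86.1 at 4 h, and 91.5 and 100.2 at 24 h. It rose 1.16-fold at 24 h (log2 0.22 ± 0.05, edgeR adjusted p = 0.00107), with groups up to 4 h that overlapped DMSO, and without 24 h library B the adjusted p was 0.0818. The +26.6 kb region, chr1:203085212-203085891, read 46.5 and 47.3 CPM in DMSO, 50.4 and 48.4 at 2 h, 50.7 and 51.5 at 4 h, and 52.1 and 55.4 at 24 h. Every library with dTAG47 was above both DMSO libraries. Its log2 change was 0.07, 0.12 and 0.20 in that order (edgeR adjusted p = 0.586, 0.251 and 0.00605), a 1.15-fold rise at 24 h. Over the alternatives tried, the log2 change at 24 h spanned 0.15 to 0.24.

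The −51.3 kb region, chr1:203007133-203008081, was the fourth of these high regions and the only one of them called at 2 h. It read 65.8 and 60.8 CPM in DMSO, 72.4 and 73.1 at 2 h, 70.7 and 69.1 at 4 h, and 79.0 and 76.3 at 24 h. The log2 change was 0.21 at 2 h, 0.15 at 4 h and 0.30 at 24 h (edgeR adjusted p = 0.0132, 0.0935 and 1.81e-05). The 2 h call was lost with DESeq2 (adjusted p = 0.0868) and at a threshold of 0.01. Over the alternatives tried, the log2 change at 2 h spanned 0.14 to 0.26.

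Other regions of the window rose at 24 h by more than the median. The −20.2 kb region, chr1:203038551-203038887, read 14.3 and 14.9 CPM in DMSO, 15.4 and 16.7 at 2 h, 16.7 and 16.9 at 4 h, and 20.2 and 20.8 at 24 h, a 1.40-fold rise (log2 0.48 ± 0.08, edgeR adjusted p = 1.28e-05). Its 24 h libraries were above all others. The −53.0 kb region, chr1:203005835-203005949, is the narrowest and has the fewest reads. It read 3.36 and 2.50 CPM in DMSO, 2.95 and 2.28 at 2 h, 3.17 and 3.24 at 4 h, and 4.18 and 4.56 at 24 h. Its 1.53-fold rise (log2 0.61 ± 0.16, edgeR adjusted p = 0.00340) missed the threshold with DESeq2, at much the same log2 change (0.60, adjusted p = 0.0860), and without DMSO library B (0.160). The other 3 regions called at 24 h, the neighbour at −40.8 kb among them, rose 1.21-fold to 1.25-fold, and all 3 missed the threshold in the authors' deposited table (adjusted p = 0.0935, 0.193 and 0.142). The 7 regions not called had log2 changes from −0.04 to 0.26.

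**Figure D2:**
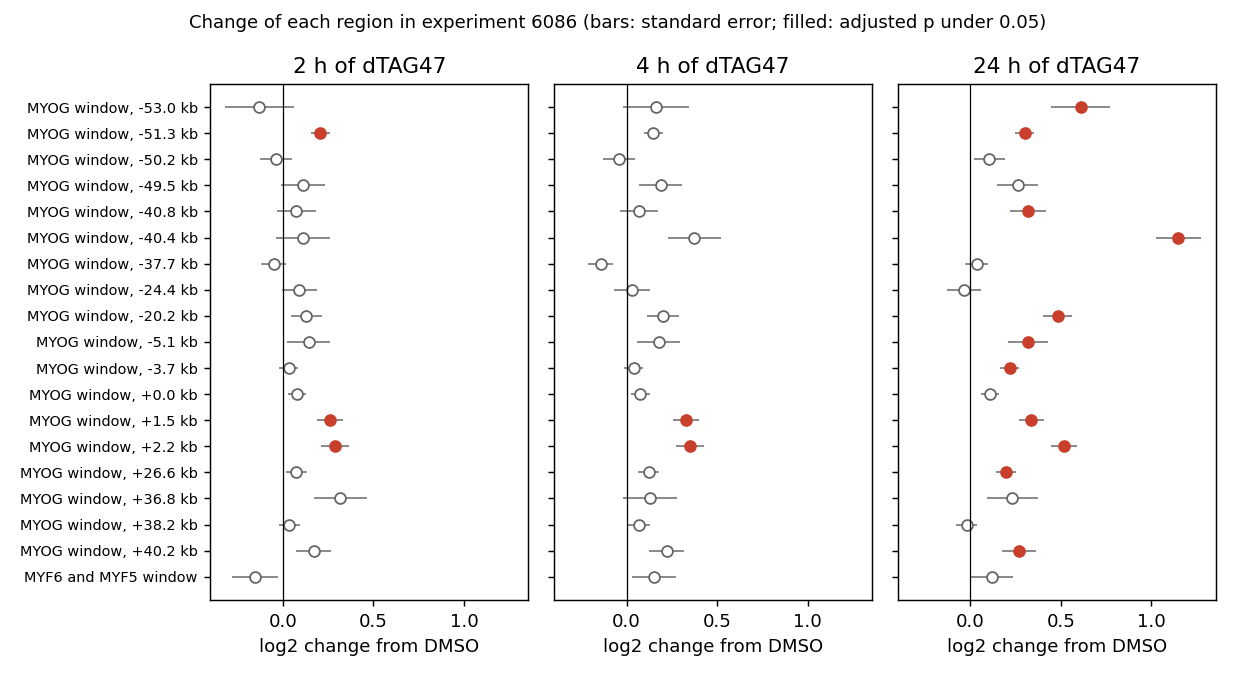
The log2 change from DMSO of each of the 19 members of experiment 6086 after 2, 4 and 24 h, with bars of 1 standard error and filled points where the adjusted p was under 0.05. Regions of the MYOG window are named by the distance of their centres from the highest region. Filled points number 3, 2 and 11, all to the right of 0, and the −40.4 kb region at 24 h lies farthest right at 1.15.

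Earlier, fewer regions of the MYOG window passed the test. At 2 h, 3 of 18 had risen, those at +2.2, +1.5 and −51.3 kb, and none had fallen, where 5.22% of all regions were called, 0.976% as higher and 4.25% as lower. At 4 h, 2 of 18 had risen, at +2.2 and +1.5 kb, and none had fallen, where 7.19% of all regions were called, 1.74% as higher and 5.44% as lower. The median log2 change of the window was 0.10 at 2 h and 0.14 at 4 h, against 0.0017 and 0.0062 over all regions. Of the 18 regions 15 and 16 were positive, against 50.5% and 51.9% of all regions. The 2, 4 and 24 h comparisons share the 2 DMSO libraries, so their signs are not separate evidence. Over all regions, calls as higher went from 556 with edgeR to 70 with DESeq2 at 2 h, and from 993 to 186 at 4 h. The 2 h calls of the members were not stable, as DESeq2 left 0 of them. The 4 h calls were 2 with DESeq2. With 1 library of either group left out at a time, the median log2 change over the 19 members spanned 0.060 to 0.11 at 2 h. At 4 h it spanned 0.11 to 0.18.

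Between time points, no member was called from 2 to 4 h (edgeR, and 0 called with DESeq2). Of all regions 0.0808% were called, 0.00351% as higher and 0.0773% as lower. The lowest adjusted p among the members was 0.447 (edgeR), in the MYF6 and MYF5 window, with a log2 step of 0.30. From 4 to 24 h, 6 of 18 regions of the MYOG window rose and none fell, where 22.6% of all regions were called, 8.73% as higher and 13.9% as lower. Of the 6, 5 are described above, those at −40.4, −53.0, −20.2, −3.7 and −51.3 kb, with log2 steps of 0.15 to 0.78, and the other, chr1:203020834-203021663 at −37.7 kb, had a step of 0.18 (edgeR adjusted p = 0.0449). That region read 36.6 and 33.4 CPM in DMSO, 30.2 and 32.8 at 4 h, and 35.2 and 36.1 at 24 h, so its step ran from a level below DMSO at 4 h (log2 −0.14, edgeR adjusted p = 0.261) back to that of DMSO at 24 h (0.03, edgeR adjusted p = 0.743). With DESeq2 1 of these calls was left, where calls as higher over all regions went from 4972 with edgeR to 1870. With 1 library of either group left out at a time, the median log2 step over the 19 members was 0.11 to 0.12. It was 0.14 with all libraries.

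Experiment 6211 gave the first 2 hours in separate libraries and with separate DMSO controls. Its regions were all 401 bp wide, which is not so in experiment 6086, so levels are not compared between the experiments. All 13 of its regions in the MYOG window overlapped one of the 18 of experiment 6086. No counterpart was found for 5 of the 18, the −40.4 and −53.0 kb regions among them, so the largest 24 h gain has no value at 0.5 or 1 h. After 0.5 h no member was called (edgeR, lowest adjusted p = 0.642, and 0 called with DESeq2), where 0.00735% of all regions were called. After 1 h, 1 of 13 had risen and none had fallen, where 2.69% of all regions were called, 0.220% as higher and 2.47% as lower. After 2 h no member was called (edgeR, lowest adjusted p = 0.143, and 0 called with DESeq2). Of all regions 6.89% were called at that time, 1.97% as higher and 4.92% as lower. The steps from 0.5 to 1 h and from 1 to 2 h gave no call among the members. Their lowest adjusted p was 0.879 and 0.703 (edgeR), and DESeq2 called 0 in both. Of all regions 0% and 0.641% were called, the latter as 0.326% higher and 0.316% lower.

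The 1 region called at 1 h was chr1:203060895-203061295, which overlaps the +2.2 kb region. It read 20.6 and 18.4 CPM in DMSO, 23.3 and 25.0 at 0.5 h, 24.4 and 28.4 at 1 h, and 22.6 and 25.1 at 2 h. Every library with dTAG47 was above both DMSO libraries, as in experiment 6086. Its log2 change was 0.30 ± 0.12 at 0.5 h, 0.43 ± 0.11 at 1 h and 0.28 ± 0.12 at 2 h (SE; edgeR adjusted p = 0.642, 0.0366 and 0.183). The 1 h call was lost with DESeq2 (adjusted p = 0.235), with counts thinned to the smallest library (edgeR, 0.0565) and in a fit of DMSO and 1 h alone (edgeR, 0.101). Over all regions, calls as higher at 1 h went from 90 to 6, 53 and 12 in those settings. Over the alternatives tried, leaving out each library among them, its log2 change at 1 h spanned 0.31 to 0.52. Of the libraries of the experiment, 1 h library B was the deepest.

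The counterpart of the +1.5 kb region, chr1:203060054-203060454, read 30.7 and 27.9 CPM in DMSO, 31.9 and 35.7 at 0.5 h, 33.4 and 36.0 at 1 h, and 32.4 and 38.6 at 2 h. No library with dTAG47 was as low as a DMSO library, but its log2 changes of 0.20, 0.24 and 0.27 missed the threshold (edgeR adjusted p = 0.781, 0.230 and 0.143). The region of the MYOG window with the highest level in this experiment, chr1:203058797-203059197, read 88.6 and 95.4 CPM in DMSO. It read 99.0 and 93.1 at 0.5 h, 96.2 and 105.8 at 1 h, and 98.7 and 99.8 at 2 h. Its log2 changes were 0.06, 0.14 and 0.11 in that order (edgeR adjusted p = 0.922, 0.359 and 0.433), with a 95% interval of −0.04 to 0.26 at 2 h. The second highest of the window, chr1:203055176-203055576, read 73.1 and 83.1 CPM in DMSO, and its changes of 0.06, 0.08 and 0.09 came with groups that overlapped DMSO at each time. The counterpart of the −20.2 kb region, chr1:203038507-203038907, read 22.8 and 17.6 CPM in DMSO and changed by −0.10, 0.06 and −0.13, each within the spread of DMSO. The counterpart of the +26.6 kb region, chr1:203085218-203085618, read 46.8 and 51.8 CPM in DMSO and changed by −0.03, 0.17 and 0.03, with groups apart from DMSO at 1 h alone.

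The 2 h time was the only one in both experiments. Of the members, 8 regions of the MYOG window and the 1 of the MYF6 and MYF5 window could be matched by 50% reciprocal overlap with a single partner. The +2.2 kb region changed by 0.29 in experiment 6086 and 0.28 in experiment 6211 on the log2 scale, and the +1.5 kb region by 0.26 and 0.27. The difference between the experiments was 0.01 ± 0.14 for the first and −0.01 ± 0.12 for the second (SE, edgeR interaction term). The widest difference was at the −20.2 kb region, 0.13 against −0.13 (difference 0.26 ± 0.15, edgeR adjusted p = 0.813). No matched member was called as different (edgeR, with 0 at an unadjusted p under 0.05, and 0 called with DESeq2). Of 29639 matched regions 0, a share of 0%, were called and 1866 had an unadjusted p under 0.05. A test that called no region at all does not show that the changes were the same.

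**Figure D3:**
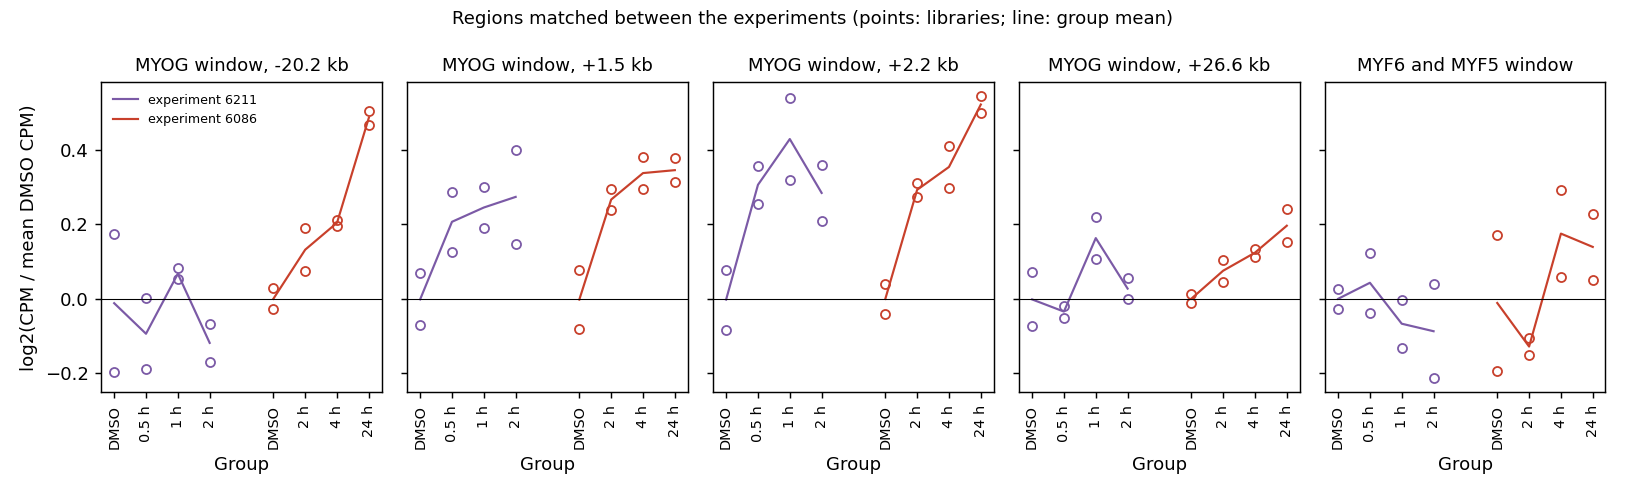
The log2 ratio of each library's CPM to the mean CPM of the DMSO libraries of its own experiment, by group, for 4 regions of the MYOG window and the region of the MYF6 and MYF5 window that are matched between the experiments. Points are libraries and lines join group means. At +2.2 and +1.5 kb all points with dTAG47 lie above the DMSO points of their experiment, while in the last panel every group with dTAG47 overlaps DMSO.

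The MYF6 and MYF5 window held a single open region, and it was called in no comparison. Its 1 region, chr12:81073210-81073422 in experiment 6086, was 213 bp wide, with a mean of 202.5 reads per library and 37.4 CPM per kb, a level above 65.2% of all regions. The next regions lay 85.4 kb to the left and 98.4 kb to the right of it, where the median gap between regions was 14.3 kb and 11.4% of gaps were as long as the right one. A single region in 100 kb was not rare: 31.5% of the 100 kb stretches with any region held 1.

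That region read 6.72 and 8.64 CPM in DMSO, 7.14 and 6.92 at 2 h, 9.41 and 7.99 at 4 h, and 7.96 and 8.998 at 24 h. The 2, 4 and 24 h groups all overlapped DMSO. Its log2 change was −0.15 at 2 h (95% interval −0.41 to 0.11), 0.15 at 4 h (−0.10 to 0.40) and 0.12 at 24 h (−0.12 to 0.36), with edgeR adjusted p of 0.622, 0.599 and 0.503. In experiment 6211 the matched region, chr12:81073123-81073523, read 13.7 and 13.2 CPM in DMSO, 14.6 and 13.1 at 0.5 h, 12.3 and 13.4 at 1 h, and 13.8 and 11.6 at 2 h. Its groups overlapped DMSO at each time, with changes of 0.04, −0.06 and −0.08 (edgeR adjusted p = 0.9752, 0.860 and 0.809). Missing the threshold does not show that it was unaffected: at 24 h the interval reaches a log2 change of 0.36, past the median of the MYOG window, 0.27. Whether the windows differed in their change was not tested.

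Summed over its regions in experiment 6086, the MYOG window held 491.9 ± 0.861 CPM in DMSO (SD, n = 2), then 526.5 ± 9.23 at 2 h, 529.3 ± 2.01 at 4 h and, at 24 h, 571.5 ± 11.6. That is 7.03%, 7.60% and 16.2% over DMSO, and every library with dTAG47 was above both DMSO libraries. In experiment 6211 the sums were 490.4 ± 10.8 in DMSO, 511.6 ± 3.61 at 0.5 h, 543.4 ± 29.8 at 1 h and 521.1 ± 10.0 at 2 h, or 4.31%, 10.8% and 6.26% over DMSO. These groups did not overlap DMSO either, and the widest spread was between the 1 h libraries. With 2 libraries against 2 no exact test can pass the threshold, so the sums are given as values.

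**Figure D4:**
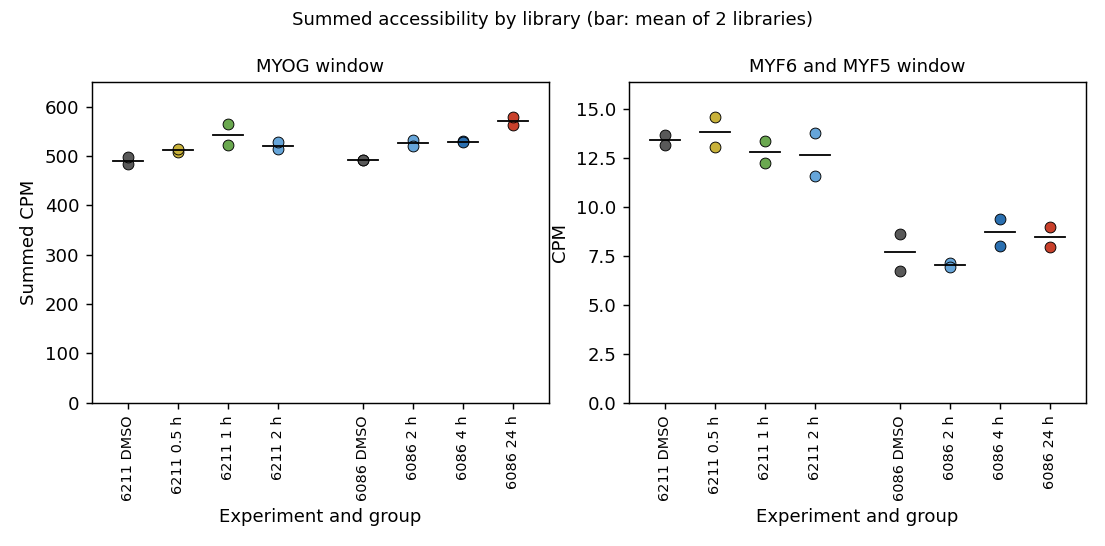
CPM summed over the regions of the MYOG window (left) and CPM of the single region of the MYF6 and MYF5 window (right) in every library, by experiment and group, with a bar at the mean of 2 libraries. The MYOG sums with dTAG47 lie above the DMSO points of their experiment, up to 579.8 at 24 h, and the points on the right overlap between DMSO and each time.

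Regions elsewhere with a like pattern over the 8 libraries of experiment 6086 were sought by Pearson's r of log2 CPM among 56669 regions, as a description. For the −40.4 kb region the 3 closest were chrX:13376056-13376481 (r = 0.996), chr21:43574839-43575311 (r = 0.994) and chr2:85316727-85317140 (r = 0.993), with 24 h changes of 0.41, 1.65 and 0.55 on the log2 scale against its 1.15. The r compares shape over libraries and not size. For the region of the MYF6 and MYF5 window the closest r was 0.979, at chr7:134001210-134002008, whose 24 h change was 0.04. These regions share the same libraries and depths, and they are the best of many.

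Other genes of the muscle regulatory network were given by windows around 6 loci: MYOD1, another myogenic regulatory factor, MEF2A, MEF2C and MEF2D, which encode the MEF2 cofactors of the family, PAX7, a paired-box factor of satellite cells, and CDH15, the gene of M-cadherin on muscle cells. These windows were set from the genes' known hg19 positions and were not checked against an annotation. Of their 64 regions in experiment 6086, 4 had fallen and 1 had risen at 2 h, 6 had fallen and 1 had risen at 4 h, and 13 had fallen and 12 had risen at 24 h. Over all regions 4.25% were lower and 0.976% higher at 2 h, 5.44% and 1.74% at 4 h, and 18.6% and 13.6% at 24 h. At 24 h the MYOD1 window had 6 regions lower and 2 higher of 16, and the PAX7 window 4 lower and 1 higher of 7. The CDH15 window had 1 lower and 6 higher of 14, the MEF2A window 0 and 3 of 12, the MEF2D window 2 and 0 of 12, and the MEF2C window 0 and 0 of 3. The MYOG window had 0 lower and 11 higher of 18, and the difference between windows was not tested.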

How the data were processed

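The 2 deposited tables of raw counts, 1 for each experiment, hold whole-number read counts per region and library, made by the authors. Tools listed in the submitters' processing notes, with no step for each, are DiffBind, DESeq2, Bowtie2, deepTools, Trimmomatic 0.32 and Genrich 0.6.1, with hg19 and dm3 as builds. Coordinates are taken as hg19. Whether reads were shifted for the transposase or duplicates removed was not stated in the notes or labels, so levels may carry their effect. The authors' deposited comparison tables also give, per the file headers, log2 fold changes, their standard errors, a test statistic (a score) and p-values, of which members' log2 fold changes and adjusted p-values were read, with the count of all regions at an adjusted p under 0.05. Their 48 columns of normalized values per library were not used.

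Counts were tested with edgeR 4.0.16 (R 4.3.3): TMM scaling, filterByExpr, all 8 libraries of an experiment in 1 quasi-likelihood fit, and Benjamini-Hochberg adjustment over all 56945 and 40844 regions tested. DESeq2 1.42.0 was an alternative. The standard error is the absolute log2 change divided by the square root of F. The common coefficient of variation between libraries was 3.48% and 5.96%. Scripts were tested on simulated data. Regions described in full were those called against DMSO, up to the 8 lowest adjusted p in each window and experiment, the 2 with the highest CPM, and their matched partners; all others are given by ranges and counts. Nothing links the column letters A and B to the numbers 1 and 2 in the titles. Deviations of same-letter libraries correlated between −0.137 and 0.211, which cannot tell whether the letters pair the libraries. The main fit took the libraries as unpaired. Replicate libraries differed by more than sampling noise (chi-square per degree of freedom 1.34 to 2.66). The members and lists were chosen with earlier results of these data known. Of the list of other muscle regulator loci, 1 window is not reported here. Alternatives tried were the scaling, the filter, a loess offset, the threshold, the groups in the fit, the overlap for matching, a block by letter and leaving out each library; thinning to the smallest library was added after seeing the data.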

Additional observations from a re-analysis of the deposited data

How the results depend on the processing

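No member was called lower in any comparison with DMSO under any setting run. No region described in full changed sign in a comparison with DMSO where it was called. Signs of the other called regions, and of the steps between times, were not followed across settings. In fits with 2 libraries in every group, counts of members called kept within 1.5 times except as follows. DESeq2 gave 0 at 2 h, 7 at 24 h and 1 from 4 to 24 h in experiment 6086, and 0 at 1 h in experiment 6211, against 3, 11, 6 and 1. Over all regions DESeq2 called 70, 4198, 1870 and 6 as higher in that order, against 556, 7742, 4972 and 90. A threshold of 0.01 gave 0 at 2 h, 3 from 4 to 24 h and, in experiment 6211, 0 at 1 h. Over all regions that threshold left 146, 2924 and 6 as higher. Thinned counts and a fit of the 2 groups alone each gave 0 at 1 h. Over all regions these 2 settings left 53 and 12 as higher at 1 h, against 90. Leaving out 1 library at a time gave 0 to 2 members at 2 h, 0 to 3 at 4 h, 7 to 10 at 24 h and 1 to 4 from 4 to 24 h, and 0 to 1 at 1 h in experiment 6211. With a replicate block by column letter the counts of members were 3, 2, 11, 0 and 5 in experiment 6086 (2, 4 and 24 h against DMSO, 4 against 2 h, 24 against 4 h) and 0, 1, 0, 0 and 0 in experiment 6211. Over all regions at 2 h, experiment 6211 then had 2204 lower and 961 higher, against 2009 and 806 without the block. Experiment 6086 had 2301 lower and 460 higher, against 2418 and 556. The causes were not tested.

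Some regions that were not called changed sign when 1 library was left out. In experiment 6086 the log2 changes then spanned −0.363 to 0.0629 at 2 h and −0.0735 to 0.355 at 4 h for the −53.0 kb region, −0.0325 to 0.334 at 2 h for the −40.4 kb region, and −0.0204 to 0.0833 at 2 h for the −3.7 kb region. For the region of the MYF6 and MYF5 window they spanned −0.298 to 0.0634 at 2 h and −0.0269 to 0.342 at 24 h. In experiment 6211 the counterpart of the −20.2 kb region spanned −0.266 to 0.105 at 0.5 h, −0.106 to 0.260 at 1 h and −0.294 to 0.0748 at 2 h. The second highest region of the MYOG window spanned −0.0353 to 0.150, −0.0153 to 0.175 and −0.00145 to 0.186 at those times. The counterpart of the +26.6 kb region spanned −0.106 to 0.0400 at 0.5 h and −0.0471 to 0.101 at 2 h, and the region of the MYF6 and MYF5 window −0.0432 to 0.121 at 0.5 h and −0.215 to 0.0369 at 2 h. At the −53.0 kb region, with the fewest reads, the 95% interval of the 24 h change ran from 0.28 to 0.94.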
